A study of Mus musculus with 8 samples.

Results

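The cells described here are 85 CD8+ T cells from B16-OVA mouse melanomas that held transcripts of both Xcl1 and Ifng at the moment they were captured. They were selected on measured counts of unique molecular identifiers (UMIs), each of which stands for 1 captured transcript: at least 3 of Xcl1 and at least 2 of Ifng, in a cell with Cd8a or Cd8b1 and with Cd3d, Cd3e or Cd3g, and with none of Cd4, Lyz2, Cd79a and Ncr1. Cells with any Mki67, with 3 or more UMIs of Gzmc to Gzmg together, or with both Pdcd1 and Tox were left out. This takes out cells in which a proliferation gene or that pair of exhaustion genes was detected. Cells with fewer UMIs of this granzyme cluster could stay in. The 85 cells were 1.82% of the 4673 CD8+ T cells by the same gate and 0.663% of the 12828 cells that passed the filter, out of 15700 barcodes. They are set against 3028 comparison cells, the CD8+ T cells of the same libraries that passed the same 3 exclusions but did not reach both cytokine minimums.

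All tumors grew in C57BL/6 mice. The mice received adoptive cell transfer (ACT) of OT1 cells, CD8+ T cells of a transgenic strain whose receptor sees an ovalbumin peptide, without prior lymphodepletion. The OT1 cells were untransduced, or secreted PD1d/IL-2v (a PD-1 ectodomain joined to an antibody Fc, with an IL-2 variant that does not engage CD25), or PD1d/IL-33, or were an equal mix of both engineered cells, written PD1d/IL-2v/IL-33, and non-treated tumors were taken as well. CD45+ cells enriched for CD8+ tumor-infiltrating lymphocytes (TILs) were sequenced in 8 libraries with the 10x Genomics 5′ assay. Day 5 has untransduced, PD1d/IL-2v/IL-33 and non-treated tumors, day 12 has untransduced, PD1d/IL-2v, PD1d/IL-33 and PD1d/IL-2v/IL-33, and day 26 has only PD1d/IL-2v/IL-33. Each library is a pool from 5 mice and each condition has a single library a day, so there is no replicate spread, no test was made and every interval below covers counting error only. Transferred and host T cells were not told apart.

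CD8+ T cells that meet antigen answer within hours through the T cell receptor (TCR). Calcium signaling brings NFAT factors into the nucleus, where with AP-1 and NF-kB they switch on cytokine and chemokine genes, and the transcripts are short-lived once the contact ends. Xcl1 (lymphotactin) draws cross-presenting dendritic cells that carry its receptor Xcr1, and Ifng acts on tumor and host cells and raises antigen presentation. Ccl3 and Ccl4 are inflammatory chemokines that draw myeloid cells and T cells, Ccl1 is the ligand of Ccr8, and Csf2 is the growth factor GM-CSF, which acts on myeloid cells.

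The promoters of the selecting pair and of 3 other secreted products are shown because their transcripts were found together in these cells. Each sequence is the 250 bases before the RefSeq start in build GRCm38.p6, written 5′ to 3′ in the direction of the gene. Xcl1 lies on the minus strand at chr1:164935523-164935772, Ifng on the plus strand at chr10:118440796-118441045, and Ccl1, Ccl3 and Csf2 on the minus strand at chr11:82179813-82180062, chr11:83649379-83649628 and chr11:54249900-54250149. Capitals mark the letters GGAAA on either strand, the core that NFAT factors recognize, and the AP-1 letters TGANTCA, which read the same on both strands, were also searched.
Xcl1: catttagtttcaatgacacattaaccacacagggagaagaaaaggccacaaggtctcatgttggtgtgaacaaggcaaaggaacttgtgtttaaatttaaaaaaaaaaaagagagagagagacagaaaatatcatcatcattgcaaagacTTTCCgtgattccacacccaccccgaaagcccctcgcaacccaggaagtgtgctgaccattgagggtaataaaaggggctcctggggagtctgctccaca
Ifng: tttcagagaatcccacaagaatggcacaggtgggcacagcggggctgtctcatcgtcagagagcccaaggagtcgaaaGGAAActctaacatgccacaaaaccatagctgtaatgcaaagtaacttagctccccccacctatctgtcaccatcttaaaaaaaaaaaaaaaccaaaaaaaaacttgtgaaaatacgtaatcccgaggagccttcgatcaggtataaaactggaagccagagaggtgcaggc
Ccl1: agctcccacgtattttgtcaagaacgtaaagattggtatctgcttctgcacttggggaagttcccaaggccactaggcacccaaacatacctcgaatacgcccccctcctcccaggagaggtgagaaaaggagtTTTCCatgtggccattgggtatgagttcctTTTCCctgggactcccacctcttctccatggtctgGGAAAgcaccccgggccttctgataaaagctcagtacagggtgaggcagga
Ccl3: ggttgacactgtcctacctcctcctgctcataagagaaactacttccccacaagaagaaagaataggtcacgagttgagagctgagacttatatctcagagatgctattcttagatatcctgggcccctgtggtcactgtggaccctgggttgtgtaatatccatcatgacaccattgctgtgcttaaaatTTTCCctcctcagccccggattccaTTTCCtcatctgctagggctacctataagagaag
Csf2: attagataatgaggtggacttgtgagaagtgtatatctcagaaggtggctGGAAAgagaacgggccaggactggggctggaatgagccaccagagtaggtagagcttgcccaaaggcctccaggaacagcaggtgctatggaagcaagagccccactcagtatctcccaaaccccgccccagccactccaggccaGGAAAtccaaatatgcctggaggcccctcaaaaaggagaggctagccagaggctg
GGAAA stood 1 time in the window of Xcl1, 1 time in that of Ifng, 3 times in that of Ccl1 and 2 times in those of Ccl3 and Csf2. TGANTCA stood in none of the 5 windows, so the marked letters overlap no AP-1 match. Of all 32851 windows of this length, 55.6% held GGAAA and 6.75% held TGANTCA, so a match to the short core is common and is no more than a description of the letters.

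The cells were spread unevenly over the libraries. Day 5 of PD1d/IL-2v/IL-33 ACT held 20 of 485 CD8+ T cells (4.12%, exact 95% interval 2.54% to 6.30%) and PD1d/IL-2v ACT at day 12 held 19 of 469 (4.05%, 2.46% to 6.25%). PD1d/IL-2v/IL-33 ACT held 16 of 697 at day 12 (2.30%, 1.32% to 3.70%) and 21 of 2152 at day 26 (0.976%, 0.605% to 1.49%). The intervals at days 5 and 26 of PD1d/IL-2v/IL-33 ACT did not overlap, and that of day 12 overlapped both. Under the filter of the later experiment of the study those of days 5 and 26 overlapped (0.925% to 4.66% and 0.324% to 1.09%). Untransduced ACT at day 5 held 5 of 408 (1.23%, 0.399% to 2.84%) and PD1d/IL-33 ACT 2 of 355 (0.563%, 0.0683% to 2.02%). The interval of PD1d/IL-33 ACT lay below that of PD1d/IL-2v ACT, both sampled on day 12, and also after thinning. The intervals overlapped with minimums scaled to depth (1.80% to 5.22% against 0.0683% to 2.02%), without the top 5% of UMIs (1.27% to 4.49% against 0.0739% to 2.19%) and under the filter of the later experiment (0.519% to 3.68% against 0.00749% to 1.64%). With 1 of 37 cells in untransduced ACT at day 12 and 1 of 70 in non-treated tumors, the intervals of these libraries reached 14.2% and 7.70% and bound little.

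**Figure D1:**
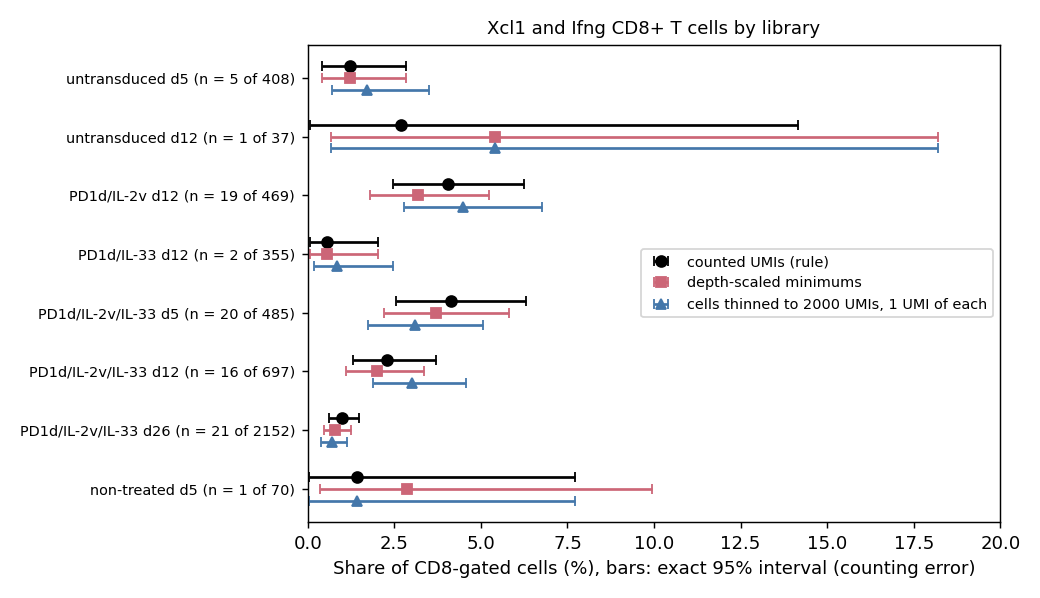
Share of CD8+ T cells (x axis, percent) that were Xcl1 and Ifng cells in each of the 8 libraries (y axis, with the cells selected and the CD8+ T cells), by the counted UMIs, by minimums scaled to the UMIs of the cell, and after every cell was thinned to 2000 UMIs with 1 UMI or more of each gene required. Bars are exact 95% intervals; PD1d/IL-2v ACT at day 12 and day 5 of PD1d/IL-2v/IL-33 ACT stand above day 26 of PD1d/IL-2v/IL-33 ACT in all 3 versions.

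In the 4 libraries with at least 15 of them the selected cells were deeper than the comparison cells, and deeper cells reach a minimum of UMIs more easily. Their median was 16873 UMIs against 7155 for the comparison cells in PD1d/IL-2v ACT, and 13211 against 6028, 8701 against 6421 and 10624 against 4854 at days 5, 12 and 26 of PD1d/IL-2v/IL-33 ACT. In untransduced ACT at day 5 it was 4995 against 5147. When the minimums were scaled to each cell's UMIs (3 Xcl1 and 2 Ifng per 8000), 75 cells were selected and 68 of the 85 remained among them. When every cell was thinned to 2000 UMIs, 85 cells were selected, 60 of them the same. Of the 85, 15 were in the top 5% of UMIs of their library, 8 of them in PD1d/IL-2v ACT, where the share without such cells was 2.54% (1.27% to 4.49%). Doublets were not called, and their part in these cells was not tested.

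The cytokine minimums alone were met by 223 CD8+ T cells, and the exclusions removed 138 of these: 79 held Mki67, 89 held Pdcd1 with Tox, 16 held the granzyme cluster, and 43 were removed on more than 1 count. On day 5, 8.82% of the CD8+ T cells of untransduced ACT (36 cells) and 8.25% of those of PD1d/IL-2v/IL-33 ACT (40 cells) met the cytokine minimums. Of the 36, 26 held Pdcd1 with Tox, against 4 of the 40. All exclusions together removed 31 of the 36 and 20 of the 40. The cells left were 1.23% (0.399% to 2.84%) and 4.12% (2.54% to 6.30%) of all CD8+ T cells of these libraries. The intervals of these shares of all CD8+ T cells overlap.

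The Xcl1 counts of the 85 cells ran from 3 to 693 with a median of 25, and the Ifng counts from 2 to 559 with a median of 8. At the edge, 20 cells stood at 3 Xcl1 or 2 Ifng UMIs, and together they had 94.1 Ccl1, 973 Ccl4 and 167 Crtam UMIs per 1000000 UMIs of the summed cells (CPM). Just outside, 55 comparison cells were 1 UMI short, 52 of them with enough Xcl1 and 1 Ifng UMI, and had 885 Ccl1, 3278 Ccl4 and 254 Crtam CPM. The cells just outside thus held more Ccl1, Ccl4 and Crtam per UMI than those at the edge inside. The name "cytokine-bursting" was not taken over, since a single capture holds no measure of time.

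The rule required Cd8 and Cd3 UMIs and none of Cd4, Lyz2, Cd79a and Ncr1, so these genes say nothing further about the cells; 81 of 85 had both Cd8a and Cd8b1, and all 85 had 2 or more of Cd3d, Cd3e and Cd3g. The other genes of the marker lists are given here with their summed counts, to which the genes at 0 by the rule add nothing. The 10 myeloid genes summed to 57 UMIs (58.8 CPM, against 104 in the comparison cells), 37 of them Cd74, with C1qa and Adgre1 at 0. Within libraries the myeloid sum was 61.2 against 55.6 CPM in PD1d/IL-2v ACT, and 49.3 against 34.7, 102 against 117 and 33.6 against 139 CPM at days 5, 12 and 26 of PD1d/IL-2v/IL-33 ACT, so its direction differed between libraries. The 8 natural killer (NK) cell genes summed to 102 UMIs (105 CPM against 147). Of these, 49 were Eomes, which T cells also use, 26 Klra7, 12 Klra3 and 11 Klrb1c, and Khdc1a was at 0. Within libraries the NK sum was 164.5 against 258 CPM in PD1d/IL-2v ACT. It was 125 against 115, 40.8 against 124 and 50.3 against 127 CPM at days 5, 12 and 26 of PD1d/IL-2v/IL-33 ACT, so its direction differed as well. The B cell list gave 2 UMIs, both of Cd79b, with Ms4a1 and Pax5 at 0. The 3 NKT and gamma delta T cell genes and the 3 hemoglobin genes were at 0, the dendritic, melanoma and stroma lists gave 1, 2 and 12 UMIs, and Foxp3 was at 0 while the CD4 and regulatory list gave 299 UMIs (308 CPM against 59.5), 275 of them Il2ra. The type 2 list gave 202 UMIs (208 CPM against 115), 110 of them Areg, with Il5 at 0. In PD1d/IL-2v ACT and at days 5 and 26 of PD1d/IL-2v/IL-33 ACT this list was lower in the selected cells (72.7 against 91.8, 235 against 469 and 50.3 against 73.1 CPM), and 100 of the 107 UMIs of day 12 were Areg in 1 cell. Among the sequences of all barcodes, 143 of 15557 occurred in more than 1 library, 2 of them those of selected cells, and no sequence belonged to 2 selected cells.

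Beside the selecting pair, Ccl1, Ccl3 and Ccl4 were the higher genes among 6 measured chemokines. Xcl1 itself, which chose the cells, stood at 10120 CPM in PD1d/IL-2v ACT and at 9566, 2331 and 3997 CPM at days 5, 12 and 26 of PD1d/IL-2v/IL-33 ACT, and Ifng at 1014, 7825, 707 and 1065 CPM in the same order. Ccl4 was detected in 68 of the 85 cells. Its level was 4592 CPM in PD1d/IL-2v ACT (exact Poisson 95% interval 4336 to 4859), 17980 CPM at day 5 of PD1d/IL-2v/IL-33 ACT (17470 to 18500), 1475 CPM at day 12 (1285 to 1684) and 4114 CPM at day 26 (3861 to 4380). In the comparison cells it stood between 324 and 924 CPM in these 4 libraries, below every value of the selected cells. Single cells weighed heavily: 1 cell held 1190 of the 4740 Ccl4 UMIs of day 5, and 1 held 82 of the 217 of day 12. Of the 2063 Ifng UMIs of day 5, 559 lay in 1 cell. The intervals do not cover this spread between cells.

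Ccl3, another inflammatory chemokine, followed the same order as Ccl4. Its level was 2372 CPM in PD1d/IL-2v ACT, 7825 at day 5 of PD1d/IL-2v/IL-33 ACT, 435 on day 12 and 902 on day 26, against 64.4 to 188 in the comparison cells. The lowest library, day 12, was still above all 4 sets of comparison cells, and 42 of its 64 Ccl3 UMIs came from 1 cell. In the comparison cells of that day 1 cell held 428 of 594.

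Ccl1, whose receptor Ccr8 is known from tumor regulatory T cells, had another order. It was highest in PD1d/IL-2v ACT (3459 CPM, 3237 to 3692), then at day 26 (1762, 1597 to 1938), day 12 (1087, 925 to 1269) and day 5 (781, 678 to 896) of PD1d/IL-2v/IL-33 ACT, and the comparison cells had 102, 43.5, 44.2 and 26.8 CPM in the same order. The transcripts sat in 37 of the 85 cells, 12 of 19 in PD1d/IL-2v ACT, 12 of 20 at day 5, 4 of 16 at day 12 and 8 of 21 at day 26. At day 12 and day 26 the level of Ccl1 therefore rested on 4 and 8 cells, and 1 cell of the 85 held 17.8% of all its UMIs.

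Csf2 reached 172 CPM in PD1d/IL-2v ACT (126 to 230), and 258 (200 to 327), 68.0 (32.6 to 125) and 105 (67.9 to 155) CPM at days 5, 12 and 26 of PD1d/IL-2v/IL-33 ACT. The comparison cells held 5, 3, 54 and 20 Csf2 UMIs in these libraries, or 2.11, 1.58, 17.1 and 2.54 CPM. Tnf and Il2, classical products of stimulated T cells, were sparse in the same cells. Tnf gave 32 UMIs in 22 of the 85 cells, and Il2 gave 8 UMIs in 3. At day 5 of PD1d/IL-2v/IL-33 ACT, Tnf stood at 11.4 CPM (2.35 to 33.3), an interval that overlaps the 4.21 CPM (1.82 to 8.29) of the comparison cells.

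**Figure D2:**
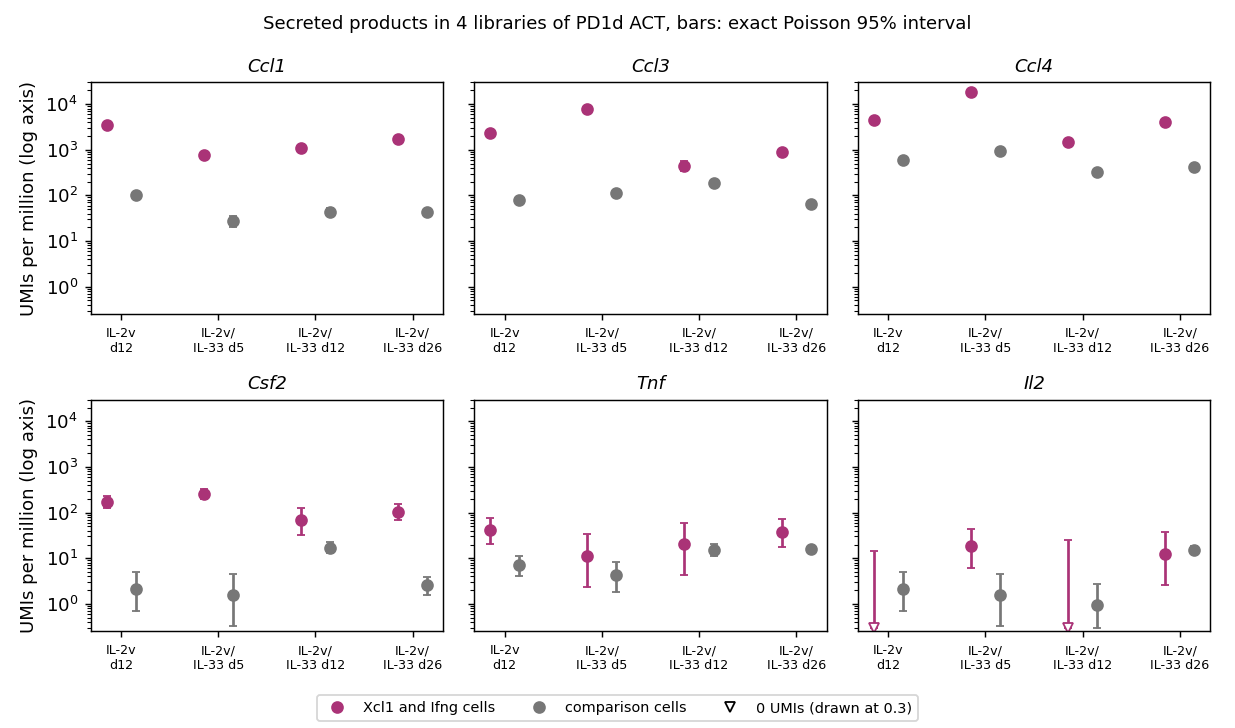
Level in CPM (y axis, log) of 6 secreted products in the Xcl1 and Ifng cells and in the comparison cells of the same library, for PD1d/IL-2v ACT at day 12 and days 5, 12 and 26 of PD1d/IL-2v/IL-33 ACT, with exact Poisson 95% intervals; open triangles mark 0 UMIs. Ccl1, Ccl3, Ccl4 and Csf2 of the selected cells stand above the comparison cells in all 4 libraries, and the intervals of Tnf at days 5 and 12 of PD1d/IL-2v/IL-33 ACT overlap them.

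The products were found together in single cells. Of Ccl1, Ccl3, Ccl4 and Csf2, at least 3 were detected in 36 of the 85 cells (42.4%, exact interval 31.7% to 53.6%) and in 21 of the 3028 comparison cells (0.694%, 0.430% to 1.06%). After thinning to 2000 UMIs the numbers were 22 (25.9%, 17.0% to 36.5%) and 8 (0.264%, 0.114% to 0.520%). By library, 16 of 20 cells at day 5 of PD1d/IL-2v/IL-33 ACT, 8 of 19 in PD1d/IL-2v ACT, 8 of 21 at day 26 and 3 of 16 at day 12 held at least 3 of the 4. In PD1d/IL-2v ACT 7 cells held all 4 products and 3 held none. Together with Xcl1 and Ifng, which chose the cells, these 4 products took 4.42% of all UMIs at day 5 of PD1d/IL-2v/IL-33 ACT, 2.17% in PD1d/IL-2v ACT, 1.19% at day 26 and 0.610% at day 12.

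Free RNA was gauged in 1191 myeloid cells, with a median of 9253 UMIs against 10238 in the selected and 5230 in the comparison cells. After thinning, Ccl1 was detected in 35.3% of the selected cells, 1.52% of the comparison cells and 0.168% of the myeloid cells, and without thinning in 43.5%, 2.71% and 0.420%. Csf2 was detected in 15.3%, 0.528% and 0.0840% after thinning (29.4%, 1.42% and 0.168% without). Zbtb32, a zinc finger repressor known to restrain cytokine genes, was detected in 20%, 2.97% and 0.252% (44.7%, 7.27% and 1.18% without). All 3 shares of the selected cells stood far above the myeloid background. For Ccl3, Ccl4 and Irf8 myeloid cells give no background, since they use these genes (Ccl4 in 48.7% of them after thinning).

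The profile beyond the selecting pair was described in the 2 libraries with at least 20 selected cells, days 5 and 26 of PD1d/IL-2v/IL-33 ACT, by the mean of the within-library log2 ratios of CPM after 10 CPM were added. A gene was counted where this mean was at least 1 or at most -1 with the same sign in both. Of 8559 genes with at least 50 UMIs, 381 were higher (4.45%) and 618 lower (7.22%) in the selected cells, with a median of -0.15 over all genes. Against comparison cells of at least 8000 UMIs the counts were 230 and 347, and with 1 CPM added in place of 10 they were 635 and 1741. Over the 4 libraries with at least 15 selected cells, 163 of 9287 genes were higher (1.76%) and 212 lower (2.28%), 145 and 189 of which were also counted with 2 libraries. Without day 12 of PD1d/IL-2v/IL-33 ACT the 3 remaining gave 297 higher and 396 lower genes. With TMM scaling the 4 libraries gave 101 higher and 302 lower genes. TMM shifted all ratios by -0.14 in PD1d/IL-2v ACT, and by -0.07, -0.14 and 0.005 at days 5, 12 and 26 of PD1d/IL-2v/IL-33 ACT. The cells were chosen within this contrast, so the counts describe the selection and were not tested.

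After Ccl3 (mean log2 ratio 4.82 over the 2 libraries), Ccl1 (4.74), Csf2 (3.86) and Ccl4 (3.76), the highest ratios were those of Myc, which drives growth of activated T cells (2.99), Tnfrsf9, the costimulatory receptor 4-1BB (2.81), and Irf8 (2.74). They were followed by Srm, the spermidine synthase (2.69), Zbtb32 (2.66), the high-affinity IL-2 receptor chain Il2ra (2.65), Rgs16, which damps G protein signaling (2.62), Utf1 (2.61), and Tnfsf14, the ligand LIGHT (2.59). Crtam, a surface receptor of activated CD8+ T cells, had 2.45. The order at the top was not fixed, as Ccl3 had 6.02 at day 5 but 3.61 at day 26, where Ccl1 had 5.05. Against all other CD8+ T cells the mean of Ccl3 was 2.55, below Ccl1 (3.20), Csf2 (3.08), Ccl4 (2.89) and Myc (2.71).

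Tnfrsf9 stood at 1347 CPM in PD1d/IL-2v ACT (1210 to 1495), and at 1028 (909 to 1158), 727 (596 to 879) and 860 (746 to 986) CPM at days 5, 12 and 26 of PD1d/IL-2v/IL-33 ACT. The comparison cells had 214, 292, 316 and 51.1 CPM, below the selected cells in each library. Crtam stood at 589, 319, 61.2 and 285 CPM in the same order, against 84.2, 41.6, 28.4 and 53.0, and at day 12 it rested on 9 UMIs. Zbtb32 stood at 107, 387, 13.6 and 172 CPM against 11.0, 68.4, 15.2 and 13.1. At day 12 of PD1d/IL-2v/IL-33 ACT its interval (1.65 to 49.1) held the level of the comparison cells, so Zbtb32 did not mark the cells of that library.

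**Figure D3:**
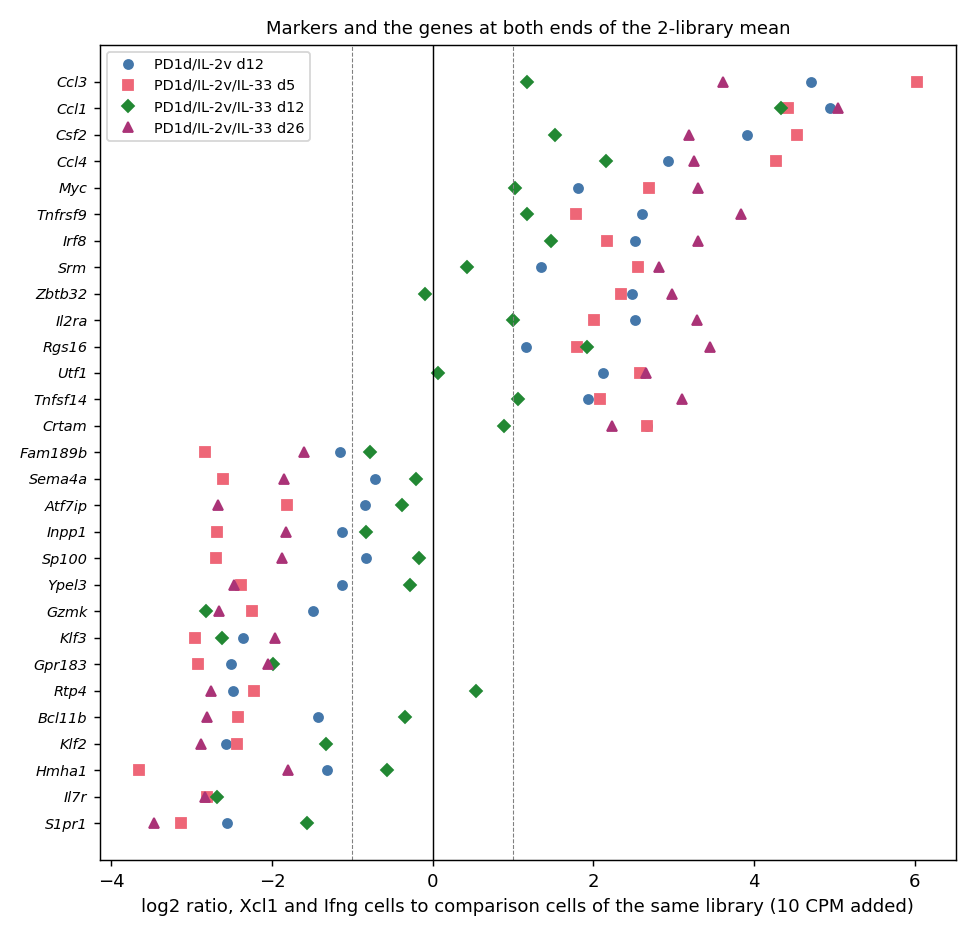
Log2 ratio (x axis) of the Xcl1 and Ifng cells to the comparison cells of the same library, after 10 CPM were added, for the marker genes other than the selecting pair and for the genes at both ends of the mean over days 5 and 26 of PD1d/IL-2v/IL-33 ACT (y axis). Each point is 1 library, and dashed lines mark ratios of 1 and -1; the points of day 12 of PD1d/IL-2v/IL-33 ACT lie nearest to 0 for most genes, and those of Ccl1 lie together between 4.34 and 5.05.

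Most measured TCR-induced transcription factors were higher. Of 22 measured genes 13 were higher, 1 was lower and 8 were not counted over the 2 libraries, with a median of 1.36. Over the 4 libraries 12 were higher, none lower and 10 not counted, with a median of 1.18. By library the median ran from 0.59 at day 12 to 1.49 at day 26 of PD1d/IL-2v/IL-33 ACT. The orphan receptor Nr4a3, a close reader of TCR signal strength, had ratios of 2.46 in PD1d/IL-2v ACT and 2.06, 1.75 and 2.94 at days 5, 12 and 26 of PD1d/IL-2v/IL-33 ACT. Its level was 268, 523, 571 and 193 CPM, against 40.4, 118, 162 and 16.4. Egr2, an early factor downstream of calcium signaling, had ratios of 1.11 to 2.77, from 4 to 18 UMIs per library. Of the NF-kB genes, Rel, Nfkb1 and the inhibitors Nfkbia and Nfkbid were higher by both counts, and the ratio of Rel lay between 1.31 and 2.03 in every library. Irf8 stood at 815, 751, 265 and 436 CPM against 134, 159, 89.1 and 35.2. Nfatc2, which encodes a latent NFAT factor, was the lower gene (-1.16), and Egr1 (0.71), Batf (0.14) and Tnfaip3 (-0.91) were not counted in either direction.

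Among 15 activation and costimulatory receptors 5 were higher and none lower (median 0.30): Crtam, Tnfrsf9, Tnfrsf4 (OX40, 1.47), the transferrin receptor Tfrc (2.58) and the amino acid transporter subunit Slc7a5 (1.61). Cd69 had 0.22 and Cd28 -0.59, so the group did not move as 1 block. Of 14 effector cytokines and TNF-family ligands other than Ifng 4 were higher and 2 lower (median 0.28). Csf2, Tnfsf14, Tnfsf8 (CD30 ligand, 2.06) and Tnfsf11 (RANKL, 1.22) were higher, while Ltb, a subunit of lymphotoxin (-1.60), and Areg (-1.14) were lower. Over the 4 libraries 4 of this list were higher and none lower. Of 16 feedback regulators 4 were higher and 3 lower (median 0.18), with the phosphatase Dusp4 (1.59), Rgs16, Spry1 and the STAT5-induced Cish (1.29) on one side and Dusp10, Rgs1 and Socs3 on the other. Over the 4 libraries 3 of 17 feedback regulators were higher and 1 lower.

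Within the IL-2 receptor family, Il2ra and Il7r stood at opposite ends. Il2ra, which STAT5 and TCR signals raise, was at 256 CPM in PD1d/IL-2v ACT and at 455, 95.1 and 248 CPM at days 5, 12 and 26 of PD1d/IL-2v/IL-33 ACT, against 36.6, 105, 42.6 and 16.4. Il7r, the receptor of resting and memory cells, gave 4, 0, 0 and 4 UMIs in these libraries, or 15.3, 0, 0 and 16.8 CPM, against 54.0 to 181 CPM in the comparison cells. Il2rb and Il2rg, the chains that IL-2v uses, had -0.03 and -0.44. Il1rl1, the IL-33 receptor ST2, was seen in 2, 4, 0 and 2 cells of the 4 libraries (7.65, 34.1, 0 and 8.39 CPM). Stat5a, which acts below these receptors, had 1.52.

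Genes of ribosome building were high in 3 of the 4 libraries. Over the 2 libraries 17 of 19 were higher and none lower (median 1.36), among them Gnl3 (2.19), Nop16 (2.10), Nolc1 (1.89) and nucleolin, Ncl (1.55). Over the 4 libraries 9 of 19 were higher and none lower. The median of the list was 1.03 in PD1d/IL-2v ACT, 1.63 at day 5, 0.16 at day 12 and 1.27 at day 26 of PD1d/IL-2v/IL-33 ACT. Day 12 was also the library in which the selected cells differed least in depth from the comparison cells, 1.36 times against 2.19 to 2.36 times in the other 3, and the part of depth in the list was not tested. The median share of UMIs in ribosomal protein genes was lower in 3 of the 4 libraries and higher at day 26: 27.2% against 36.9% in PD1d/IL-2v ACT, and 29.6% against 31.0%, 33.2% against 34.3% and 34.3% against 31.4% at days 5, 12 and 26. Of 15 glycolysis genes 4 were higher (Hk2, Tpi1, Pgk1 and Pgam1, median of the list 0.57; Hk2 and Tpi1 over the 4 libraries), and of 11 survival genes Gadd45b (2.22), Pim1 (1.33) and Bcl2l1 (1.11) were higher and Bcl2 (-1.13) lower. None of 11 cell cycle genes other than Mki67 was counted, and cells with Mki67 had been left out.

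S1pr1 and Il7r had the lowest ratios. S1pr1, the receptor that leads T cells out of tissue, had no UMI in the 41 selected cells of days 5 and 26 of PD1d/IL-2v/IL-33 ACT, and 4 UMIs in all 85 cells, against 77.9 and 101 CPM in the comparison cells of those days. The factor Klf2, which keeps S1pr1 on, stood at 80.4, 30.3, 27.2 and 50.3 CPM in the 4 libraries against 527, 209, 83.7 and 436. After S1pr1 (-3.30, a value set by the 10 CPM added, as its UMIs were at 0), the next lowest were Il7r (-2.82, with 0 UMIs at day 5, and -4.65 with 1 CPM added in place of 10), Hmha1 (-2.72), Klf2 (-2.66), Bcl11b (-2.61), Rtp4 (-2.49), Gpr183, a receptor for oxysterols that guides cells in lymphoid tissue, Klf3 (-2.46) and Gzmk (-2.45). They were followed by Ypel3, Sp100, Inpp1, Atf7ip, Sema4a and Fam189b. S1pr1, Il7r, Klf2, Klf3, Gpr183 and Gzmk were below -1 in each of the 4 libraries, and Rtp4, an interferon-induced gene, was at 0.55 at day 12 of PD1d/IL-2v/IL-33 ACT.

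Of 15 naive and memory genes 8 were lower and 1 higher (median -1.27). Tcf7, the factor TCF1 of precursor cells, had -2.76 in PD1d/IL-2v ACT and -2.14, -1.87 and -1.66 at days 5, 12 and 26 of PD1d/IL-2v/IL-33 ACT. The higher gene was Ccr7, the lymph node homing receptor, at 501 CPM in PD1d/IL-2v ACT (419 to 595) against 174 (158 to 192), and at 395, 88.3 and 159 CPM against 170, 184 and 58.1 at days 5, 12 and 26. Ccr7 was thus higher in 3 libraries and lower at day 12. Of 14 chemokine and homing receptors 7 were lower and 1 higher (median -0.96), and over the 4 libraries 4 were lower and none higher. Cxcr3, Cxcr4, the integrin chains Itga4 and Itgb7 and others were lower, and Ccr8, the receptor of Ccl1, was the higher gene, at 2.04 on day 26 and 0.03 on day 5.

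Cytotoxic genes split. Of 17 measured 3 were higher and 4 lower over the 2 libraries (median -0.07), and Srgn was higher and Gzmk and Klrg1 lower over the 4. Gzmb stood at 543 CPM in PD1d/IL-2v ACT and at 2996, 1495 and 927 CPM at days 5, 12 and 26 of PD1d/IL-2v/IL-33 ACT, against 434, 1697, 825 and 354. Gzmk stood at 34.4, 37.9, 13.6 and 109 CPM against 115, 217, 156 and 743. Perforin, Prf1, had ratios between -0.19 and 1.08. Ccl5, a chemokine of memory and effector cells that is stored as transcript, was below the comparison cells in all 4 libraries (ratios of -1.36 to -0.29), unlike Ccl3 and Ccl4. Among effector and memory transcription factors 1 of 12 was higher (Stat5a) and 3 were lower (Runx3, Ikzf2 and Rora, median -0.26).

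Of 11 inhibitory receptor genes 2 were higher and none lower (median 0.45). Cd160 stood at 918, 448, 95.1 and 491 CPM in the 4 libraries against 211, 89.5, 65.7 and 60.4, and Pdcd1lg2, the ligand PD-L2, had 1.45. Pdcd1 and Tox were used to choose the cells and are left out of this count, with 37 cells holding Pdcd1 without Tox and 11 Tox without Pdcd1. Lag3 had 2.02 in PD1d/IL-2v ACT, 0.23, 1.44 and 0.68 at days 5, 12 and 26.

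Interferon-stimulated genes were low in 3 of the 4 libraries. Of 14 measured 11 were lower and none higher over the 2 libraries (median -1.71), among them Irf7 (-2.15) and Ifit3 (-2.04), whereas over the 4 libraries 1 was lower and none higher. The median was -0.75 in PD1d/IL-2v ACT and 0.81 at day 12 of PD1d/IL-2v/IL-33 ACT, and over the 4 libraries it was -0.79. At day 12 most UMIs of Isg15 and of Ifit3 came from 1 cell. Ifngr1, the receptor chain that binds interferon gamma, was lower in each library: 165, 178, 333 and 189 CPM against 608, 646, 535 and 613. Of 15 genes of heat shock and tissue dissociation 3 were higher and none lower over the 2 libraries (Jun, Ier3 and Hsp90aa1, median 0.10). Over the 4 libraries 1 of them was higher and none lower.

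**Figure D4:**
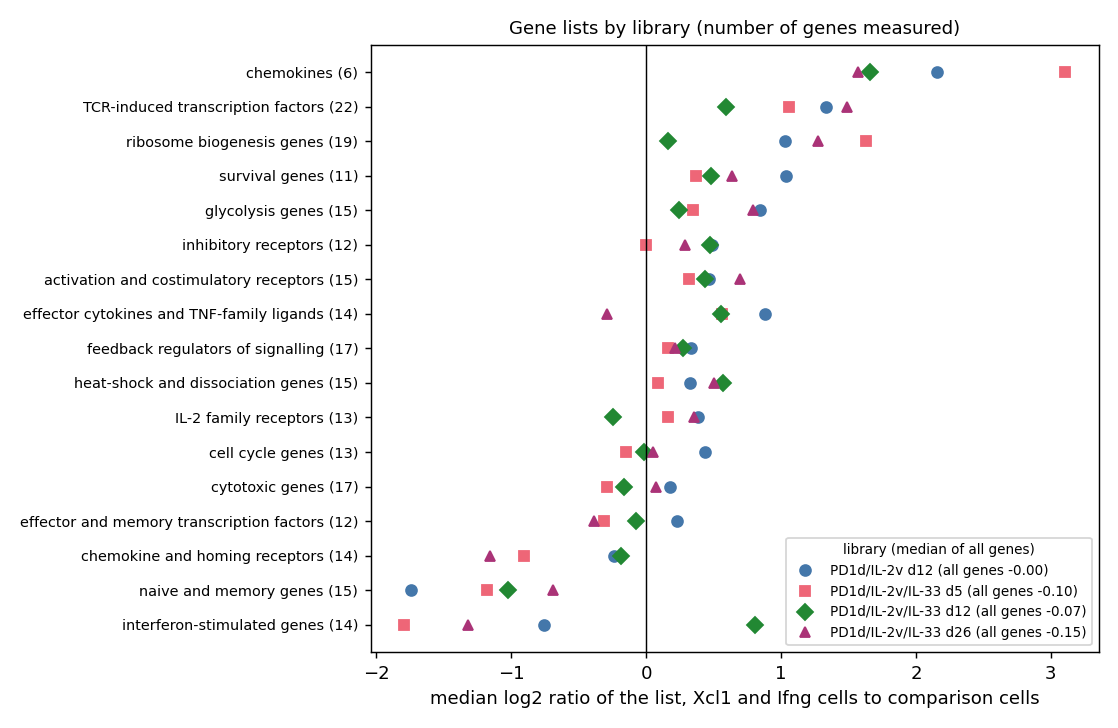
Median log2 ratio (x axis) of 17 gene lists (y axis, with the number of genes measured over the 4 libraries) in the Xcl1 and Ifng cells against the comparison cells, 1 point per library; the legend gives the median of all genes. Chemokines and TCR-induced factors stand above 0 and naive and memory genes below 0 in each library, while interferon-stimulated genes are at 0.81 at day 12 of PD1d/IL-2v/IL-33 ACT and below 0 in the other 3.

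Between libraries the selected cells were compared in the planned pairs, of which 3 of 5 had at least 15 cells on both sides. Day 26 against day 5 of PD1d/IL-2v/IL-33 ACT was not among the planned pairs. The 3 comparisons share the library of day 12 of PD1d/IL-2v/IL-33 ACT. In each of them the other library carries a different code in the aggregation table. Treatment or day therefore cannot be told apart from a batch that these codes may mark. Against PD1d/IL-2v ACT, that library had 42 of 1059 genes higher (3.97%) and 88 lower (8.31%). The lower genes were led by Cd7 (0 against 444 CPM), Il4, Myc (34.0 against 413), Cd160, Crtam and Klre1. The 73 Il4 UMIs of PD1d/IL-2v ACT came from 2 cells, 72 from 1 of them, and 55 of the 116 Cd7 UMIs from 1 cell. The comparison cells of the same libraries also differed in this direction for Myc (-2.48, against -3.27 in the selected cells), Cd7 (-1.85 against -5.50), Cd160 (-1.55 against -3.14), Crtam (-1.29 against -3.07) and Klre1 (-0.96 against -2.88). The higher genes were Areg, Gm15564, Erdr1, Gm42418, Rgs2 and Ly6c2, and the 100 Areg UMIs of PD1d/IL-2v/IL-33 ACT came from 1 cell. The comparison cells were higher as well for Rgs2 (1.52 against 2.38 in the selected cells), Erdr1 (1.26 against 2.55) and Gm15564 (1.20 against 2.77), and for Ly6c2 had 0.34 against 2.37. Gm42418, which overlaps ribosomal RNA sequence, stood at 38010 CPM against 7064 in the selected cells and at 28870 against 14230 in the comparison cells, and its part in the other differences was not tested.

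In PD1d/IL-2v/IL-33 ACT, day 12 against day 5 gave 98 of 1086 genes higher (9.02%) and 162 lower (14.9%). Ccl3 (-4.14) and Ccl4 (-3.60) were among the lowest ratios, and the comparison cells had 0.71 and -1.49. Without the cell richest in the gene on each day these ratios were -5.31 and -3.86. Zbtb32 (-4.07), the histone methyltransferase gene Dot1l (-3.70) and Ifng (-3.45), which chose the cells, were also among the 6 lowest, and Ifitm1 rested on 2 cells of day 5. The comparison cells had -1.64 for Zbtb32, -0.60 for Dot1l and 0.48 for Ifng. Higher at day 12 were Rgs2 (3.15), Ly6c2 (2.85), the RNA decay factor Zfp36l2 (2.75), Dusp1 (2.55) and Ltb (2.42), each from 12 to 15 of its 16 cells, and Areg from 1 cell. The comparison cells were higher in the same direction for Ly6c2 (0.97), Rgs2 (0.75), Dusp1 (0.73) and Ltb (0.27), and for Zfp36l2 had -0.08.

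Day 26 against day 12 gave 63 of 968 genes higher (6.51%) and 57 lower (5.89%). Myc (457 against 34.0 CPM), Tnfsf14 (248 against 34.0), Gzma, Emc6 and Cd160 (491 against 95.1) were higher, with ratios of 2.25 to 3.41. Penk, an enkephalin precursor, had 81 UMIs, all in 1 cell of day 26. Rgs2 (16.8 against 381), S100a4, Ctla4, Gm15564 and Ly6c2 were lower, and Areg rested on 1 cell of day 12. The comparison cells differed in the same direction for Rgs2 (-2.15 against -3.87 in the selected cells), S100a4 (-2.01 against -2.76), Gm15564 (-1.01 against -2.51), Ly6c2 (-0.74 against -2.31), Ctla4 (-0.73 against -2.51) and Myc (1.13 against 3.41). This held to a smaller extent for Tnfsf14 (0.51 against 2.55) and Emc6 (0.18 against 2.32), and for Cd160 they had -0.105 against 2.25. Gzma came from 8 of 21 cells at day 26, and its ratio in the comparison cells was -1.19 against 2.51.

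The cells with the same cytokine minimums that were removed for Pdcd1 with Tox are a group that only the exclusions kept apart from the selected cells. In PD1d/IL-2v ACT 22 such cells, and at day 26 of PD1d/IL-2v/IL-33 ACT 25, could be set beside 19 and 21 selected cells, at near or greater depth (medians of 16717 and 17437 UMIs). Ccl1 was at 3459 against 1452 CPM in PD1d/IL-2v ACT and at 1762 against 57.5 CPM at day 26. Il2ra (256 against 95, and 248 against 36.9), Myc (413 against 167, and 457 against 109), Tnfsf14 (157 against 64.9, and 248 against 14.4) and Crtam (589 against 315, and 285 against 90.3) were higher in the selected cells of both libraries. The Helios gene Ikzf2 was lower, with 19.1 against 155 CPM in PD1d/IL-2v ACT, and at day 26 with 0 UMIs (0 to 15.5 CPM) against 107 CPM (79.7 to 140). Ctla4 was also lower (153 against 285, and 41.9 against 183), whereas Lag3 was at 344 against 220 in the former and 83.9 against 322 in the latter. The removed cells were chosen for Pdcd1 with Tox, and how far Ikzf2 and Ctla4 follow from that choice was not tested. In PD1d/IL-2v ACT the log2 ratios of the selected to the removed cells were 0.26 for Ccl3, 0.02 for Ccl4 and -0.01 for Csf2, and at day 26 they were -0.19, 1.31 and 1.36. Rgs16 was lower in the selected cells (-1.31 and -0.63). Top2a and Stmn1 were lower as well, and cells with Mki67 were left out of the selected cells only.

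**Figure D5:**
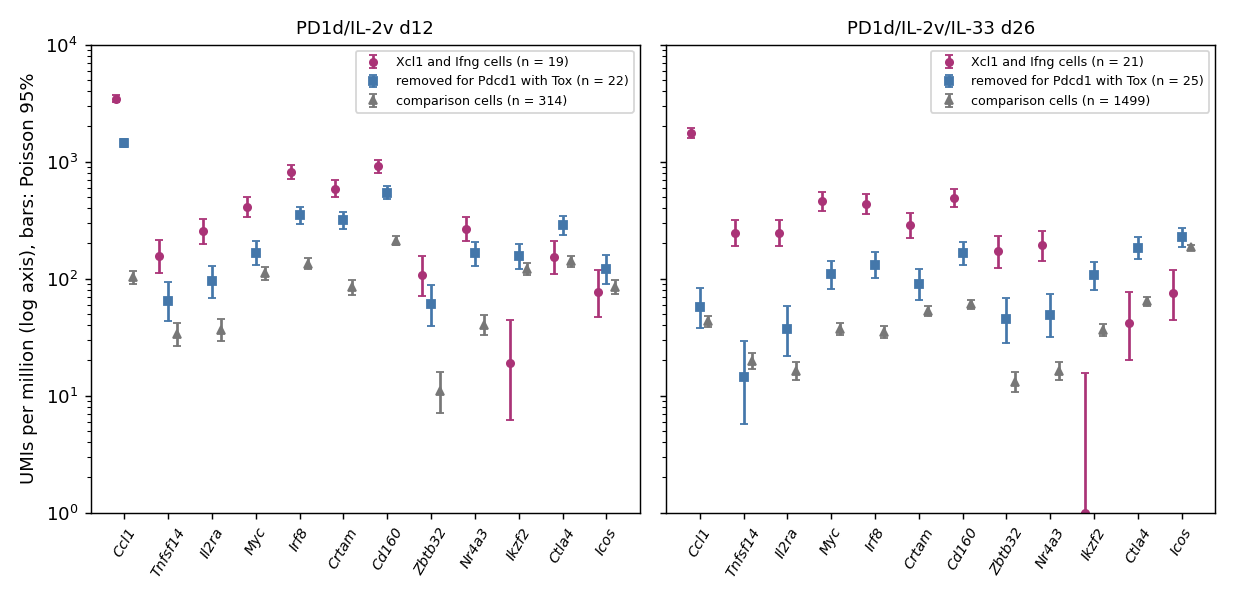
Level in CPM (y axis, log) of 12 genes in the Xcl1 and Ifng cells, in cells with the same cytokine minimums that were removed for Pdcd1 with Tox, and in the comparison cells, for PD1d/IL-2v ACT at day 12 and day 26 of PD1d/IL-2v/IL-33 ACT, with exact Poisson 95% intervals. Ccl1, Tnfsf14, Il2ra and Myc are higher and Ikzf2 and Ctla4 lower in the selected than in the removed cells of both libraries; Ikzf2 had 0 UMIs at day 26 and is drawn at the foot of the axis.

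The other 4 libraries held 9 selected cells. In the 5 cells of untransduced ACT at day 5, Ccl4 stood at 4854 CPM (3 cells), Ccl3 at 1463 (2 cells) and Myc at 1249 (3 cells), while Ccl1 and Csf2 gave no UMI (0 to 132 CPM). The 2 cells of PD1d/IL-33 ACT both held Ccl3 (3692 CPM), Ccl4 (7055 CPM), Irf8 and Zbtb32, and neither held Ccl1. The 1 cell of untransduced ACT at day 12 held 144 Xcl1, 260 Ccl4 and 16 Ccl1 UMIs, and that of non-treated tumors 16 Xcl1 and 10 Ccl4 UMIs without Ccl1, Crtam or Zbtb32. S1pr1 gave no UMI in any of these 9 cells.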

How the data were processed

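UMI counts of CD45+ TILs were deposited by the authors as 1 gene by barcode matrix of 8 aggregated libraries, without normalization. The submitters' processing notes name Cell Ranger 2.2.0, bcl2fastq and GRCm38. The suffix of a barcode gave its library through the aggregation table, which also gives each library a code, 5 in all. What the codes stand for is not stated. PD1d/IL-2v and PD1d/IL-33 share a code, the non-treated tumors and day 26 share another, and both remaining libraries of day 12 share another. Totals ran from 1387032 UMIs in 400 barcodes (untransduced ACT, day 12) to 24917112 in 3700 (PD1d/IL-2v/IL-33 ACT, day 26).

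The filter kept 500 to 6000 genes and 2000 to 40000 UMIs per cell, with 5% to 60% in 113 ribosomal protein genes and under 10% in 13 mitochondrial genes. UMIs were summed over cells per library and scaled to CPM, with exact Poisson intervals; shares have Clopper-Pearson intervals, with thinning to 2000 UMIs (seed 1). Intervals are at 95% and cover counting error only. Myeloid cells had at least 3 Lyz2 UMIs and no Cd3, Cd79a or Ncr1. Doublets were kept. Python 3.11.15 with numpy 2.4.6, scipy 1.17.1 and pandas 2.3.3 was used, and edgeR 4.0.16 in R 4.3.3 for TMM factors. The calculation of the ratios was tried on simulated Poisson sums with known fold changes. These had no spread between cells and no selection by cytokine, so they say nothing about values that rest on single cells.

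The members and the gene lists were chosen with earlier results of these data known. Named genes are the markers, the 15 highest and 15 lowest mean ratios, the 6 highest and 6 lowest of each pair of libraries, and genes of the lists past the fold or most abundant. Of 5 pairs of libraries planned, none had 20 cells on both sides, and 2 libraries did, so a minimum of 15 was added after the numbers were known. Motif windows matched by symbol. Some results are not reported here, and nothing else from the study was analysed.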

Additional observations from a re-analysis of the deposited data

Results flagged for a closer look

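These genes of the lists were flagged because the selected cells stood above the comparison cells by at least 1 (log2) in 1 library and below by at least 1 in another. With 1 library per condition and day the difference was not tested. Interferon-stimulated genes made up the largest group: at day 12 of PD1d/IL-2v/IL-33 ACT the within-library ratios were 1.27 for Ifit1, 1.77 for Ifit3, 1.63 for Isg15, 1.15 for Isg20, 1.55 for Rsad2 and 1.41 for Usp18. The lowest ratios were -2.11 for Ifit1 at day 5 of PD1d/IL-2v/IL-33 ACT, -2.98 for Ifit3, -2.30 for Isg15, -2.37 for Isg20 and -1.19 for Rsad2 at day 26, and -1.67 for Usp18 in PD1d/IL-2v ACT. The values of day 12 rested on few cells, with Isg15 detected in 5 and Ifit3 in 2 of its 16, and 1 cell held 26 of 41 Isg15 UMIs and 10 of 11 Ifit3 UMIs.

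Areg ranged from 5.40 at day 12 of PD1d/IL-2v/IL-33 ACT, where 1 cell held all 100 UMIs, to -2.44 in PD1d/IL-2v ACT. Spp1 ranged from 2.19 in PD1d/IL-2v ACT to -1.39 at day 26, and 1 cell held 81.6% of its UMIs in the selected cells. Rgs2 ranged from 1.12 at day 12 to -1.28 at day 5, Ctla4 from 1.26 at day 12 to -1.15 at day 5, and Hspa1a from 1.18 at day 12 to -3.53 at day 5 of PD1d/IL-2v/IL-33 ACT. Socs2 ranged from 1.90 at day 26 to -1.45 at day 5, Gzma from 2.29 at day 26 to -1.41 at day 12, and Gzmm from 1.25 at day 26 to -2.06 at day 12. The lowest values of Areg, Spp1, Socs2, Gzmm, Ifit1, Rsad2 and Hspa1a come from 0 UMIs in the selected cells and are set by the 10 CPM added.

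Both cytokine minimums were also met outside the CD8+ gate, in cells the comparisons did not use. Among cells with Cd8 and Cd3 UMIs that met them, 32 held Lyz2, 7 Ncr1, 6 Cd4 and 2 Cd79a, which the gate does not allow. Free RNA and doublets as sources of these UMIs were not tested. The shares below are before the 3 exclusions, and the matching number inside the gate was 223 of 4673 CD8+ T cells. Of 1887 NK cells, 133 met them (7.05%, exact 95% interval 5.93% to 8.30%), and of 81 CD8+ cells with Ncr1, 7 did (8.64%, 3.55% to 17.0%). Of 1191 myeloid cells 1 met them (0.0840%, 0.00213% to 0.467%), and of 1116 CD4+ T cells 3 (0.269%, 0.0555% to 0.784%).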

How the results depend on the processing

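All 338 values of the 31 named genes under the alternatives kept the sign of the reported mean ratio. These genes are the markers, with the selecting pair, and the extremes of the same contrast, so their kept sign was no test. Sizes moved by more than the counting error for 13 of 31 genes with comparison cells of at least 8000 UMIs, for 9 of 31 against all other CD8+ T cells, for 17 of 31 over the 4 libraries, for 13 of 31 with a pseudocount of 1 CPM, for 10 of 31 with UMIs pooled over libraries, for 6 of 31 with minimums scaled to depth, for 4 of 31 without the top 5% of UMIs, and for 13 of 29 without day 5 and 13 of 30 without day 26. With deep comparison cells Irf8 went from 2.74 to 1.76, Il2ra from 2.65 to 1.74 and Ccl1 from 4.74 to 3.41, and against all other CD8+ T cells Ccl3 from 4.82 to 2.55, Rgs16 from 2.62 to 1.25 and Ccl1 to 3.20. The shares by library stayed within the counting interval of the reported value, except under the filter of the later experiment of the study (400 to 3000 genes, 500 to 12000 UMIs, under 5% mitochondrial and 50% ribosomal), with 1.59% in PD1d/IL-2v ACT and 2.29% at day 5 of PD1d/IL-2v/IL-33 ACT. Counts of genes moved more. For the 2 libraries, a pseudocount of 1 CPM gave 635 higher and 1741 lower genes, comparison cells with at least 8000 UMIs 230 and 347, and the 4 libraries 163 and 212. For the 4 libraries, leaving out day 12 of PD1d/IL-2v/IL-33 ACT gave 297 and 396, deep comparison cells 102 and 103, the pseudocount of 1 CPM 297 and 963, and TMM 101 higher. For the pairs, a minimum of 10 UMIs gave 323 higher and 576 lower genes for PD1d/IL-2v/IL-33 against PD1d/IL-2v ACT at day 12, 441 and 761 for day 12 against day 5, and 473 and 392 for day 26 against day 12. The same genes in the comparison cells gave 15 lower in the first, 3 higher and 10 lower in the second and 20 higher in the third, where minimums scaled to depth gave 39 higher. The 4-library and pair settings with at least 15 cells, the removal of each of the 4 libraries in turn, the deep comparison cells and the removal of the richest cell were chosen after seeing the data. None of the 5 planned pairs of libraries had at least 20 cells on both sides, so none was run at that minimum. No paired analysis was possible because each condition has 1 library a day and no replicate numbers.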

Other observations

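Background from free RNA was not gauged for Xcr1, the receptor of Xcl1, and 1 Xcr1 UMI lay in the selected CD8+ T cells. Cells with Xcr1 and no UMI of Cd3d, Cd3e or Cd3g were few: 35 in all libraries. Their share of the filtered cells was 0.783% in PD1d/IL-33 ACT (6 cells, exact 95% interval 0.288% to 1.70%), 1.09% in non-treated tumors (3 cells, 0.225% to 3.14%), 0.154% and 0.495% in untransduced ACT at days 5 and 12 (3 cells and 1 cell), 0.205% in PD1d/IL-2v ACT (4 cells, 0.0560% to 0.525%), and, in PD1d/IL-2v/IL-33 ACT, 0.293%, 0.243% and 0.191% by day (7, 4 and 7 cells).

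Among NK cells the share that met both cytokine minimums was 11.6% (8.65% to 15.1%) in untransduced ACT at day 5, 9.74% (7.16% to 12.9%) in PD1d/IL-2v ACT, and 3.38% (2.05% to 5.23%), 5.31% (2.68% to 9.31%) and 1.47% (0.0372% to 7.92%) on successive days of PD1d/IL-2v/IL-33 ACT.

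In the promoter windows, GGAAA stood in 63.9% of 313 genes higher in the selected cells over 2 libraries and in 63.7% of 468 lower genes, against 59.7% of 6613 tested genes with a window. TGANTCA stood in 4.79%, 8.76% and 4.98%.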
